A study of Mus musculus with 6 samples.

Results

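Genes that carry thyroid hormone into the cell, activate or destroy it, and respond to it were followed in cultured cardiac fibroblasts (CFs), the cells that make and maintain the extracellular matrix of the heart. The set was defined by gene symbol and comprised 6 of the 19446 genes in the table: *Slc16a10* (transport), *Dio2* and *Dio3* (deiodination), *Thra* and *Thrb* (nuclear receptors) and *Klf9* (response). All 6 had at least 10 reads in at least 2 libraries, as did 15948 genes of the table, which were tested. The set was drawn up with results of the comparison between genotypes already known, so the differences between genotypes for these 6 genes are given as a description, without p-values.

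The study asked how the transcriptome of CFs changes in mice lacking the long non-coding RNA *Charme*, and 6 poly(A) RNA-seq libraries of cultured CFs were used here. Of these, 3 were from wild-type (WT) mice and 3 from CharmeKO mice, in which a polyadenylation signal inserted in the *Charme* locus ends its transcription early. The mice were C57BL/6 J animals labelled as 5 weeks old, whereas the explant culture methods give a range of ages around this. No other treatment was named. Per the study's methods, the cultures grew out of explanted atrial tissue pooled from littermates, in serum-containing medium on fibronectin, so each library may represent several animals and does not cover the ventricle. The methods describe independent primary isolations for the study's experiments, but the labels do not tie a library to an animal or an isolation.

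Thyroid hormone is secreted mainly as the prohormone thyroxine and enters cells through membrane transporters. Inside the cell, type 2 deiodinase converts thyroxine to the active hormone triiodothyronine, and type 3 deiodinase inactivates both. The active hormone binds nuclear receptors that sit on DNA with retinoid X receptors, recruiting corepressors without hormone and coactivators with it. In the heart the pathway is best known for its control of contractile and calcium-handling genes of cardiomyocytes, and fibroblasts also express the receptors.

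The regions upstream of a RefSeq start of *Dio2*, *Dio3* and *Thrb* are shown because these 3 genes varied most between libraries (values below). Each line gives the 250 bases before a RefSeq transcription start (GRCm38.p6) from 5′ to 3′ on the strand of the gene. Capitals mark matches to 4 searched motifs: TGACGTCA (cAMP response element), AGGTCA (nuclear receptor half-site), a direct repeat of 2 AGGTCA half-sites with 4 bases between them, and the TATA box TATAAA. The last was searched on the gene's strand and the others on both, and the direct repeat contains the half-site.
Dio2: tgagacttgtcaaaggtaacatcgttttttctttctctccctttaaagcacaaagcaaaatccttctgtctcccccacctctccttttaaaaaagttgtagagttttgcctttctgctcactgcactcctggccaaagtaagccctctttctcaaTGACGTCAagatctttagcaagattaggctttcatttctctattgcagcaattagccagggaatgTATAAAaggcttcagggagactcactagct
Dio3: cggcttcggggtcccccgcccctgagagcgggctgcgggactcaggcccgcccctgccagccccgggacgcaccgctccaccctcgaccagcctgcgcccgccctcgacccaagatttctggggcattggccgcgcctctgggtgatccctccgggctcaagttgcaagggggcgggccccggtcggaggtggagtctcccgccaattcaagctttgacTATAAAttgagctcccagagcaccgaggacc
Thrb: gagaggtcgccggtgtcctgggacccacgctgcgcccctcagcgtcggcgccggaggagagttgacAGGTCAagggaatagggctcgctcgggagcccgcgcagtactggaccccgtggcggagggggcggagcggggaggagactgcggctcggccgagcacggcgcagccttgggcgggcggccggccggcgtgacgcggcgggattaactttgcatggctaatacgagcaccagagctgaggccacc
These windows lie at chr12:90739039-90739288 (minus strand) for *Dio2*, chr12:110278980-110279229 (plus strand) for *Dio3* and chr14:17660710-17660959 (plus strand) for *Thrb*. The RefSeq starts differ from the starts of the GENCODE gene spans given below. Against those spans, the *Dio2* window lies apart from the gene, the *Dio3* window runs into it and the *Thrb* window lies inside it. The *Dio2* window held TGACGTCA from 95 to 88 bases and TATAAA from 30 to 25 bases before the start, and the *Dio3* window held TATAAA from 31 to 26 bases before it. The *Thrb* window held AGGTCA from 184 to 179 bases before the start. Among 32851 such windows of the mouse table, 1.55% held TGACGTCA, 14.0% AGGTCA, 0.0152% the direct repeat and 7.59% TATAAA. The *Dio2* window had 41.6% G and C and 2 CpG, whereas the *Dio3* window had 69.6% and 21 and this *Thrb* window 71.6% and 30, against a median of 52.4% and 6. A match describes letters in a window and says nothing of binding. Of the members, 5 had an entry, with a second start for *Thrb* (44% G and C, TATAAA from 167 to 162 bases before it), and *Thra* had none.

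The label of the cells was checked against marker lists. All 7 fibroblast markers (*Col1a1*, *Col1a2*, *Pdgfra*, *Dcn*, *Lum*, *Tcf21*, *Ddr2*) were detected, with *Col1a1* at 2323 ± 621 RPKM (reads per exon length and library total, mean ± SD over 6 libraries). Among them, *Lum* ran from 633 to 11491 normalised reads and *Tcf21* from 199 to 1764. By replicate number, *Dcn* and *Lum* were higher in CharmeKO all 3 times, where 16.4% of all genes tested were. *Ddr2* was lower all 3 times, where 14.0% were, and its groups did not overlap, as for 4.11%. Of 7 cardiomyocyte markers, 3 had a row, and their sum reached 136 to 589 normalised reads in WT and 158 to 794 in CharmeKO, with *Ryr2* at 0 in CharmeKO 2 and 3. Markers of other cell types also differed widely between libraries. The 7 macrophage markers summed to 1878 to 7854 normalised reads in WT and 1013 to 16899 in CharmeKO, with *Ptprc* at 0 in CharmeKO 3. The 6 mesothelial markers with a row (of 7) summed to 13166 in WT 1 and 14825 in CharmeKO 1, and to 884 to 3566 elsewhere. The 8 smooth muscle and pericyte markers summed to 3940 to 25512 in WT, highest in WT 3, and 3380 to 4244 in CharmeKO, with *Abcc9* at 0 in CharmeKO 3. All 8 had a lower mean log2 level in CharmeKO (median difference -1.85, from -3.56 for *Cspg4* to -0.0047 for *Notch3*). By replicate number, 5 were lower in CharmeKO all 3 times, where 14.0% of all genes tested were. *Cspg4* had 450 to 3663 normalised reads in WT and 25.2 to 241 in CharmeKO, without overlap, as for 4.11% of all genes tested. The 4 endothelial markers with a row (of 5) summed to 99.97 to 185 and 39.1 to 219, with *Cdh5* at 0 in WT 2 and CharmeKO 3. *Pparg*, the 1 adipocyte marker of 5 with a row, had 146 to 1137, and the 3 Schwann cell markers summed to 25.2 to 138, with *Sox10* at 0 in CharmeKO 2 and 3. The libraries also differed in sex-linked transcripts, chosen after their values were seen: *Xist*, expressed from the inactive X chromosome, had 9850 to 28789.8 normalised reads in WT and 7.87 to 8126 in CharmeKO, and the Y-linked *Ddx3y* 92.3 in WT 3 and 2081 to 3204 elsewhere. *Xist* was thus higher in every WT library than in every CharmeKO library. Differences between genotypes cannot be told apart from differences in the sex of the pooled animals, which the labels do not give. The part of these cells and of sex in the values below was not tested, and in bulk RNA fewer cells of a type cannot be told apart from less RNA per cell. The entry taken to be *Charme* had 5, 15 and 11 reads in WT and 0, 6 and 3 in CharmeKO. The Poisson 95% interval of the 0 reaches 3.69 reads. The entry was thus near the detection limit in both genotypes and the groups overlapped. Library totals were 38330019 to 46797446 reads.

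Levels per exon length set *Thra* and *Klf9* apart from the other 4 members. *Thra*, the receptor gene that predominates in the heart, had 20.9 ± 10.01 RPKM (SD, n = 6 libraries) and *Klf9*, a Krüppel-like transcription factor gene induced by thyroid hormone and glucocorticoids, 18.8 ± 4.42 RPKM. These 2 did not separate, *Thra* being the higher in 3 of 6 libraries. *Slc16a10* followed at 1.04 ± 0.169 RPKM, *Thrb* at 0.636 ± 0.386, *Dio3* at 0.453 ± 0.509 and *Dio2* at 0.126 ± 0.0732. Among these 4, *Slc16a10* exceeded *Thrb* in 5 of 6 libraries, *Thrb* exceeded *Dio3* in 3 of 6 and *Dio3* exceeded *Dio2* in 4 of 6, so neighbours in this order overlapped. The range of *Dio2* lay below those of *Slc16a10* and *Thrb* without overlap, and those of *Thra* and *Klf9* lay above all 4 others.

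**Figure D1:**
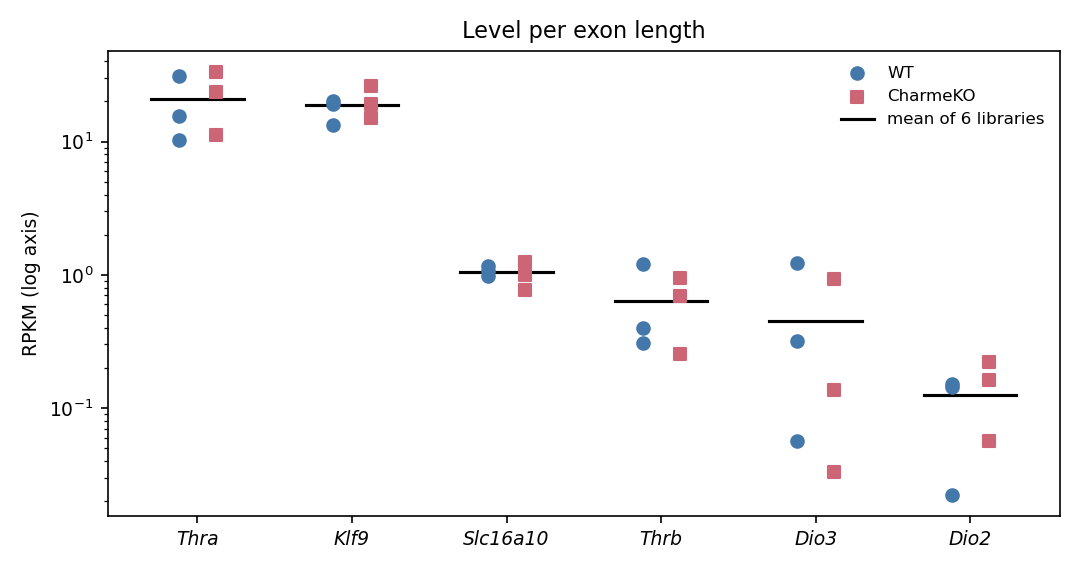
Level of the 6 genes per exon length and library total (RPKM, log axis) in each WT (circles) and CharmeKO (squares) library, with the mean of 6 libraries as a bar. *Thra* and *Klf9* lie near 20.9 and 18.8 RPKM, at least an order of magnitude above the other 4 genes.

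*Slc16a10* (ENSMUSG00000019838, GRCm38 chr10:40033532-40142258, minus strand) encodes a transporter of thyroid hormone and aromatic amino acids. Its level was 306, 324 and 365 normalised reads (reads divided by a size factor per library) in WT libraries 1, 2 and 3, and 317, 361 and 230.5 in CharmeKO libraries 1, 2 and 3. CharmeKO 3 was the lowest library and the other 5 lay close together. The log2 difference between CharmeKO and WT was -0.15 (SE 0.26), and by replicate number it was 0.051, 0.16 and -0.66. *Slc16a10* varied least of the 6 genes, with a 1.58-fold span from the lowest to the highest library, against a median of 2.11-fold over all genes tested.

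*Dio2* (ENSMUSG00000007682, chr12:90724552-90738438, minus strand) encodes the activating deiodinase. It had 35.5, 5.34 and 37.4 normalised reads in WT and 40.4, 12.8 and 52.2 in CharmeKO, from 36, 5 and 34 and from 42, 13 and 60 reads. The libraries numbered 2 were the lowest of both genotypes, and the groups overlapped. The 5 reads of WT 2 carry a Poisson 95% interval of 1.62 to 11.7 reads, and the 60 reads of CharmeKO 3 one of 45.8 to 77.2. CharmeKO 3 exceeded WT 2 by 9.78-fold (95% counting interval 3.96 to 31.2). These were taken as the highest and lowest libraries after the values were seen, which the interval does not allow for. The log2 difference between genotypes was 0.59 (SE 0.91), and CharmeKO was the higher in each pair, by 0.18, 1.12 and 0.47. In pair 1 the intervals of 36 reads (25.2 to 49.8) and 42 reads (30.3 to 56.8) overlapped, and in pair 2 the 2.39-fold ratio had a counting interval of 0.801 to 8.58. Leaving out WT 2 alone, which keeps its low partner CharmeKO 2, gave -0.26.

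*Dio3* (ENSMUSG00000075707, chr12:110279068-110281097, plus strand) encodes the inactivating deiodinase and lies at the end of the imprinted *Dlk1*-*Dio3* domain. It had 4.92, 102 and 27.5 normalised reads in WT and 2.88, 10.8 and 77.4 in CharmeKO, from 5, 96 and 25 and from 3, 11 and 89 reads. The highest library was WT 2, the next CharmeKO 3, and both libraries numbered 1 were the lowest. WT 2 exceeded CharmeKO 1 by 35.5-fold, with a 95% counting interval of 11.8 to 175 that reflects the 3 reads of the latter. The interval does not allow for their choice as the highest and lowest libraries. *Dio3* had the widest span of the 6 genes. The log2 difference between genotypes was -0.76 (SE 1.42), and the pairs went different ways, with -0.61, -3.13 and 1.46. In pair 2 WT exceeded CharmeKO by 9.48-fold (counting interval 5.07 to 19.6), and in pair 3 CharmeKO exceeded WT by 2.82-fold (1.79 to 4.59). Both intervals lay on their own side of 1, while that of pair 1 (0.586-fold, 0.091 to 3.01) spanned it.

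The balance of both deiodinases therefore shifted with the library. Per exon length, the ratio of *Dio2* to *Dio3* was 2.51, 0.018 and 0.475 in WT and 4.89, 0.413 and 0.235 in CharmeKO. *Dio2* exceeded *Dio3* in the libraries numbered 1 of both genotypes and lay below it in the other 4. The counting interval of the ratio was 1.56 to 24.6 in CharmeKO 1 and 0.983 to 8.21 in WT 1, so of these only the former kept clear of 1. In WT 2, the library with the most extreme ratio, *Dio3* exceeded *Dio2* by 55.0-fold (22.8 to 173). No interval was computed for WT 3, CharmeKO 2 or CharmeKO 3, and CharmeKO 2 rests on 13 *Dio2* and 11 *Dio3* reads. From WT 1 to WT 2, *Dio2* was lower by 2.52 and *Dio3* higher by 4.13 on the log2 scale, and from CharmeKO 1 to CharmeKO 2 *Dio2* was lower by 1.59 and *Dio3* higher by 1.60.

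**Figure D2:**
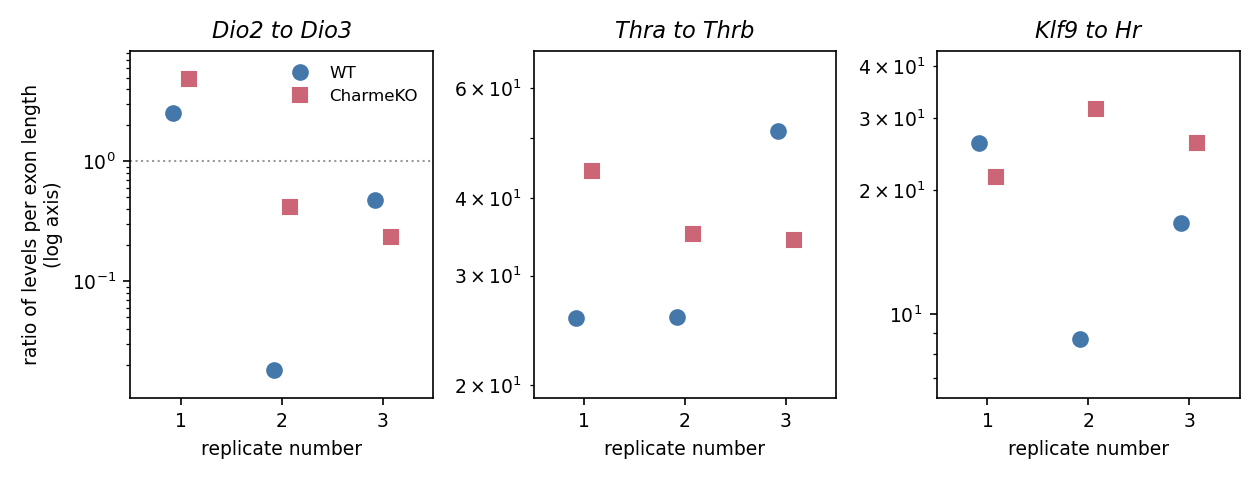
Ratio of levels per exon length in each library (log axes), by replicate number, for *Dio2* to *Dio3*, *Thra* to *Thrb* and *Klf9* to *Hr* in WT (circles) and CharmeKO (squares); the dotted line marks equal levels of the deiodinases. The deiodinase ratio ran from 0.018 in WT 2 to 4.89 in CharmeKO 1, that of the receptors from 25.7 to 51.3, and that of the response genes from 8.68 in WT 2 to 31.5 in CharmeKO 2.

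*Thra* (ENSMUSG00000058756, chr11:98740638-98769006, plus strand) overlaps *Nr1d1* on the opposite strand, and reads were counted by strand. Its level was 2018, 5885 and 3054 normalised reads in WT and 2224, 6019.7 and 4432 in CharmeKO. The libraries numbered 1 were the lowest and those numbered 2 the highest in both genotypes. The log2 difference was 0.24 (SE 0.50), and CharmeKO was the higher in each pair, by 0.14, 0.033 and 0.54. The table sums the 9 annotated transcripts, so hormone-binding and non-binding receptor variants were not separated.

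*Thrb* (ENSMUSG00000021779, chr14:17660261-18038090, plus strand) had 126, 367 and 95.6 normalised reads in WT and 80.8, 276 and 208 in CharmeKO. Its highest libraries were again those numbered 2, and the groups overlapped. The log2 difference was 0.022 (SE 0.67), from pair differences of -0.64, -0.41 and 1.11. Per exon length *Thra* exceeded *Thrb* by 25.7, 25.7 and 51.3-fold in WT and by 44.2, 35.0 and 34.2-fold in CharmeKO. The alpha receptor was thus the main receptor transcript in each of the 6 libraries, and the log2 ratio averaged 5.02 ± 0.58 (SD, n = 3) in WT and 5.23 ± 0.20 in CharmeKO.

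*Klf9* (ENSMUSG00000033863, chr19:23141226-23168134, plus strand) had 3888, 3968 and 2716 normalised reads in WT and 3106, 3619.9 and 5091 in CharmeKO. WT 3 was the lowest and CharmeKO 3 the highest library, so the extremes fell in one pair and the other 4 values lay between them. The log2 difference was 0.15 (SE 0.25), with -0.32, -0.13 and 0.91 by pair.

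**Figure D3:**
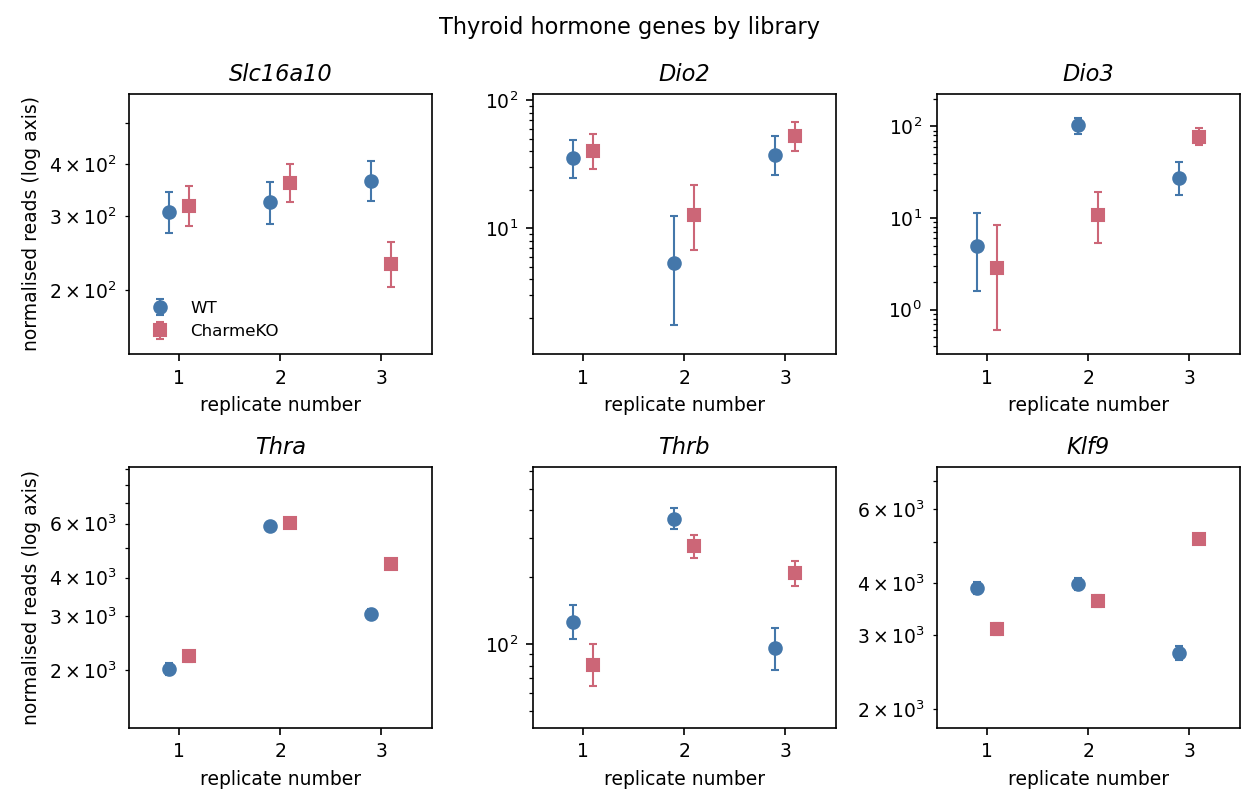
Normalised reads of each gene (log axes) by replicate number in WT (circles) and CharmeKO (squares), with Poisson 95% intervals, which cover counting error only. The groups overlap for all 6 genes, *Dio2* is lowest and *Thra* and *Thrb* are highest in the libraries numbered 2, and *Dio3* spans 2.88 to 102.

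Set side by side, 4 of the 6 genes had a positive log2 difference (*Dio2*, *Thra*, *Thrb*, *Klf9*) and 2 a negative one, but the sign of *Thrb* turned with edgeR and DESeq2 without a block (lowest -0.066). The median was 0.086 against 0.0022 over the 15948 genes tested. None of the 6 was called by limma (adjusted p under 0.05), and neither was any other gene: 0 of 15948 (0.00%) passed, with 143 (0.897%) at an unadjusted p under 0.05. edgeR's quasi-likelihood test also called 0, with 158 at that unadjusted level, and DESeq2 called 8 (0.0502%). With the replicate number as a block, limma and edgeR called 0 and DESeq2 64 (0.401%), with 857 (5.37%), 768 and 891 (5.59%) at an unadjusted p under 0.05 and no member among them. The groups overlapped for all 6 members and did not for 4.11% of all genes tested. *Dio2* and *Thra* were the 2 members higher in CharmeKO in all 3 pairs, under each of 3 scalings, where 16.4% of all genes were, and no member was lower in all 3, where 14.0% were. Since the members were chosen with this comparison known, nothing is read from these counts.

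**Figure D4:**
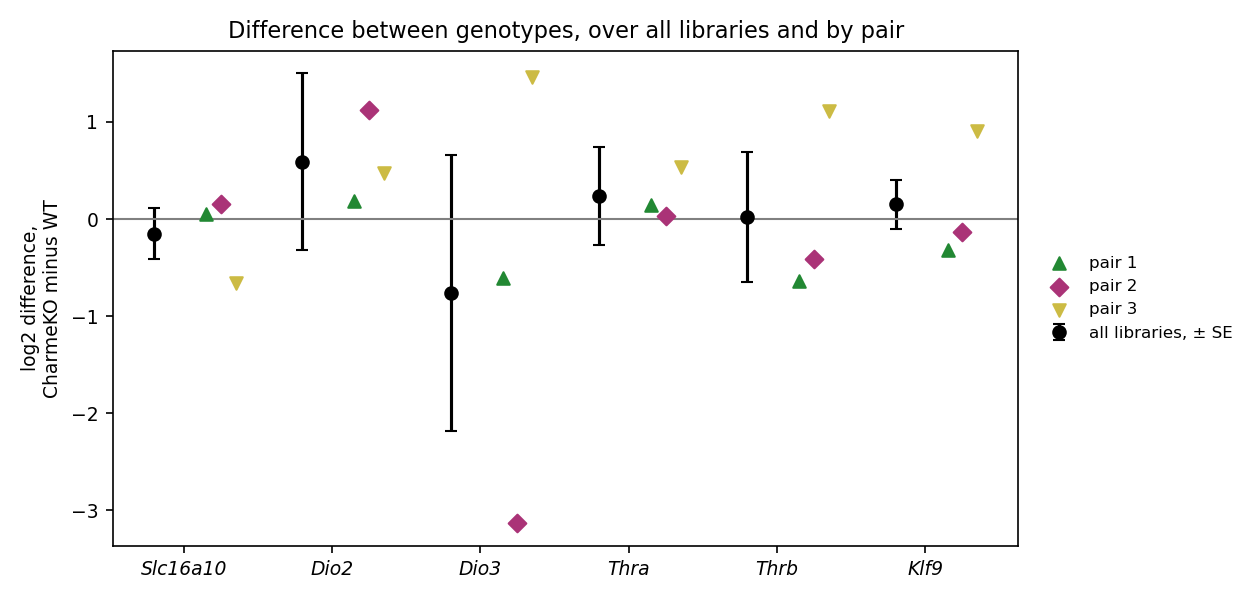
Log2 difference between CharmeKO and WT for the 6 genes, over all libraries (black, ± SE of the limma fit) and by pair of equal replicate number (coloured). For *Dio3*, *Thrb*, *Klf9* and *Slc16a10* the pairs lie on both sides of 0, whereas for *Dio2* and *Thra* all 3 lie above it.

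The replicate number accounted for more of the variance of log2 levels than the genotype for 5 of the 6 members, as for 88.9% of all genes tested. The number has more degrees of freedom than the genotype, so its share tends to be the larger even without any effect. The shares were not corrected for this, and the 5 include *Slc16a10* at 19.5% against 11.9%. They are given as a description. The share of the number was 93.5% for *Thra*, 89.3% for *Dio2*, 76.1% for *Thrb*, 67.6% for *Dio3* and 19.5% for *Slc16a10*, against a median of 73.8% over all genes. The exception was *Klf9*, at 3.52% for the number and 6.91% for the genotype, the rest being left between libraries. The genotype's share was 11.9% for *Slc16a10*, 7.45% for *Dio2*, 4.55% for *Dio3*, 3.53% for *Thra* and 0.020% for *Thrb*. The pooled SD within groups had a median of 0.86 log2 units over the members and 0.44 over all genes.

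Among other genes of hormone transport, *Slc3a2*, the heavy chain shared by amino acid transporters that also carry the hormone, was the higher in CharmeKO in each pair, by 0.23, 0.37 and 0.31 log2 units, and its overall difference was 0.30 (SE 0.19). Its light chain *Slc7a5* differed by 0.0024 (SE 0.35), and *Slc7a8*, another light chain, by -0.58 (SE 1.15), with 9.57 normalised reads in CharmeKO 3 against 52.7 to 237 in the others. In all, 0 of the 3 tested genes of this list passed in limma. *Crym*, a cytosolic hormone-binding protein gene, was below the filter with 0 to 8 reads per library and was the sole gene with a row in the list of other deiodination and binding genes.

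Genes that act on the deiodinases were followed as well. Of 6 genes for selenoprotein synthesis, which both enzymes need for their selenocysteine, 0 passed, 3 were higher and 3 lower, and differences ran from -0.13 (*Trnau1ap*) to 0.17 (*Sephs2*). *Eefsec* and *Secisbp2* lay within, at 0.13 and -0.017. Of 4 genes for ubiquitination of type 2 deiodinase, 0 passed, and the most abundant, the ligase adaptor gene *Wsb1* (32.3 ± 3.17 RPKM), differed by -0.018 (SE 0.16). The ligase gene *Marchf6* differed by 0.018, and the deubiquitinase genes *Usp33* and *Usp20* by -0.14 and 0.038.

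The non-coding neighbours of *Dio3* in its imprinted domain had their lowest levels in another library than *Dio3* itself. *Meg3*, the maternally expressed long non-coding RNA of the domain, had 11028, 40091 and 29309 normalised reads in WT and 12046, 27691 and 3608 in CharmeKO. *Rian* and *Mirg*, further non-coding RNAs of the same domain, were also lowest in CharmeKO 3, at 1763 and 67.0. That library had the second highest *Dio3* level of the 6. In pair 3 the differences were -3.02, -3.29 and -3.41 log2 units for *Meg3*, *Rian* and *Mirg* and 1.46 for *Dio3*. In pairs 1 and 2 they were 0.13 and -0.53 for *Meg3*, 0.040 and -0.61 for *Rian*, and -0.13 and -0.58 for *Mirg*. *Dlk1*, at the other end of the domain, ran from 25.6 to 259 normalised reads and was the higher in CharmeKO in each pair. None of these 4 genes passed in limma, and their median difference was -1.21. Over all libraries *Meg3*, *Rian* and *Mirg* differed by -1.14, -1.29 and -1.37, and without CharmeKO 3 by -0.36, -0.59 and -0.71.

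**Figure D5:**
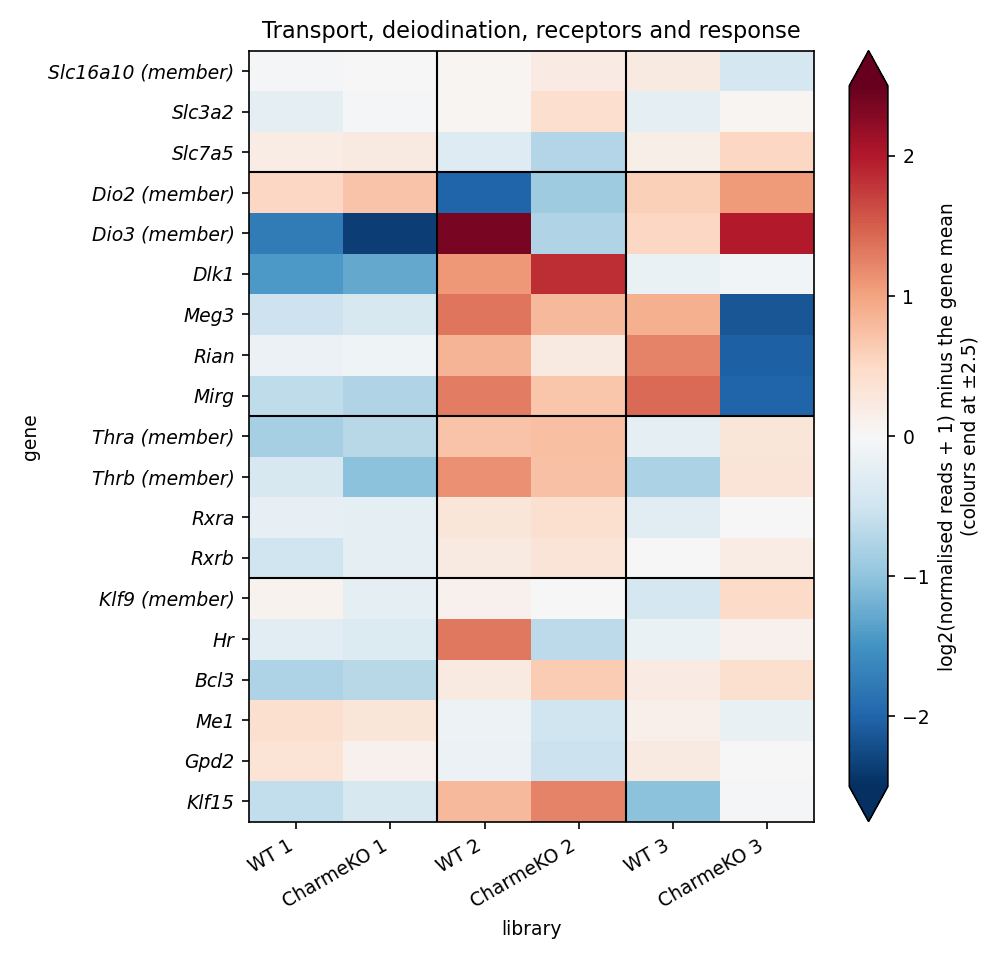
Log2(normalised reads + 1) of 19 genes of transport, deiodination with the *Dlk1*-*Dio3* domain, receptors and response, each minus its mean over 6 libraries, with same-numbered libraries side by side; red is above and blue below the mean, and colours end at ±2.5. *Meg3*, *Rian* and *Mirg* are lowest in CharmeKO 3, where *Dio3* is high, and *Thra* and *Thrb* are highest in the libraries numbered 2. *Klf15*, drawn with the response genes, comes from the list of other Krüppel-like factor genes and was chosen after its values were seen. Its difference, 0.55 (SE 0.61), is the highest of that list. The response genes *Atp2a2* and *Hcn2* are not drawn.

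Receptor partners and cofactors had differences between -0.27 and 0.18. The retinoid X receptor genes *Rxra* (20.8 ± 5.08 RPKM) and *Rxrb* (11.1 ± 2.59 RPKM) differed by 0.12 (SE 0.24) and 0.18 (SE 0.25), and *Rxra* was thus about as abundant as *Thra*. Of 5 corepressor genes 0 passed, with 3 higher and 2 lower. *Ncor1*, a corepressor that binds the receptors directly, differed by -0.15, and the complex genes *Hdac3* and *Gps2* by 0.12 and 0.14. *Tbl1x*, another subunit of the corepressor complex, was the 1 gene of the 59 tested in the pathway lists whose groups did not overlap (1.69%, against 4.11% of all genes), with 7832, 7856 and 8749 normalised reads in WT and 7099, 7386 and 7765 in CharmeKO, a difference of -0.13 (SE 0.15). Of 7 coactivator genes 0 passed, 6 were lower and 1 higher, with a median of -0.10. The most abundant of them per exon length were *Thrap3* (-0.094), *Ep300* (-0.12), *Crebbp* (-0.075) and *Med1* (-0.20).

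Response genes other than *Klf9* were listed with earlier results of these data known, so their signs are given as a description. Of 6 tested, 0 passed, 5 were lower and 1 higher in CharmeKO, with a median of -0.28 against 0.0022 over all genes tested. *Atp2a2*, the calcium pump gene that thyroid hormone induces in cardiomyocytes, had the highest level (86.2 ± 15.4 RPKM) and differed by -0.11 (SE 0.23). Over 18 settings of the fit its difference ran from -0.27 to 0.021. *Me1* and *Gpd2*, metabolic enzyme genes induced by the hormone in liver, differed by -0.26 and -0.29. Both were the lower in CharmeKO in each pair, where 14.0% of all genes tested were. *Bcl3* differed by 0.23. *Hr*, a corepressor gene that responds directly to the hormone and is named here after its values were seen, had 215, 657 and 234 normalised reads in WT and 207, 165 and 281 in CharmeKO, WT 2 standing apart. *Klf9* showed no such value in WT 2, and its ratio to *Hr* per exon length ran from 8.68 in WT 2 to 31.5 in CharmeKO 2. *Hcn2*, also named after its values were seen, differed by -0.54 (SE 0.30), with 0.032, -0.89 and -0.78 by pair.

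Since *Klf9* also responds to glucocorticoids and the clock, genes of these inputs were followed. Of 9 tested, 0 passed, 4 were higher and 5 lower, with a median of -0.13. The most abundant per exon length were *Dusp1* (82.4 ± 45.4 RPKM, difference 0.018), *Sgk1* (-0.27), the glucocorticoid receptor gene *Nr3c1* (-0.20) and the clock gene *Nr1d1* (0.018). Of 13 other Krüppel-like factor genes 0 passed, 4 were higher and 9 lower, and *Klf6* (-0.13) and *Klf4* (0.11) were the most abundant per exon length, followed by *Klf2* (-0.038) and *Klf3* (0.043). Over the 59 tested genes of the pathway lists, 7 were higher in CharmeKO in all 3 pairs (11.9%, against 16.4% of all genes) and 12 lower (20.3%, against 14.0%).

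The genes whose log2 levels ran most nearly in parallel to each member over the 6 libraries were named by Pearson's r. With 6 points that share their libraries and replicate numbers, high values are common, and they are given as a description. For *Thra*, 1287 genes (8.15% of those compared) had an r above 0.9, led by *Recql5* (0.9995), *Phyhip* (0.999) and *Slc25a23* (0.9986). For *Thrb* there were 488 (3.09%), led by *Cd46* (0.995), *Slc22a5* (0.993) and *Nat8f5* (0.990), the last with 0.961 to 22.4 normalised reads. For *Dio3* there were 484 (3.06%), led by *Mfhas1* (0.998), *Dcp2* (0.996) and *A330023F24Rik* (0.996), and for *Dio2* 473 (2.99%), led by *Tufm* (0.9992), *Kctd12* (0.998) and *Nup43* (0.997). *Slc16a10* had 109 (0.690%), led by *Arap1* (0.991), *Hoxd8* (0.987) and *Ptgir* (0.986). *Klf9* had the fewest, 61 (0.386%), led by *Dclk1* (0.997), *Appbp2os* (0.993) and *Gm48314* (0.989). *Dclk1* had 5506, 5761 and 3470.5 normalised reads in WT and 4129, 4824 and 7673 in CharmeKO, lowest in WT 3 and highest in CharmeKO 3 as *Klf9* was.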

How the data were processed

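Poly(A) RNA of cultured CFs was sequenced from 3 WT and 3 CharmeKO libraries, grouped by their titles. The authors aligned reads with STAR, counted them per gene on the reverse strand against an Ensembl annotation with *Charme* added, dropped the lowest genes and scaled the rest with DESeq2 (versions not given in the sources used here). The deposited values are a normalised signal, reads divided by a size factor per library. All 116676 values were whole multiples of 1 read (100%, tolerance 1e-06), from which reads were recovered. Counting leaves out reads shared by genes overlapping on a strand and those mapping to several places. The sources name a GRCm39 assembly with an annotation release built on GRCm38, so gene coordinates were looked up by Ensembl ID in the GENCODE annotation of GRCm38, and exon lengths for RPKM came from it. Promoter windows came from RefSeq (GRCm38.p6), matched by symbol, and those of 5 of 6 members were found.

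limma 3.58.1 (R 4.3.3) with its trend option, run on log2(value + 1), compared the genotypes over 15948 genes that reached 10 reads in 2 or more libraries (two-sided, Benjamini-Hochberg adjustment, threshold 0.05). Fold changes on this scale understate those of low genes. edgeR 4.0.16 and DESeq2 1.42.0 on the recovered reads, other filters, pseudocounts and scalings, the replicate block and leaving out each library were alternatives. Pathway and marker lists and the members were chosen with earlier results of these data known. Some pathway genes are not reported here and are left out of the lists and their counts. Named genes were the members, up to 4 genes of highest level per exon length in each pathway list and the 3 genes most like each member. Intervals for counts are Poisson and those for ratios of counts exact binomial (95%), and both cover counting error only, since reads carried no molecular identifiers. The fits were tested on simulated reads without a replicate effect, in which only well-covered genes were changed. That test does not measure the power to call a difference in these data. Plots were drawn with matplotlib 3.10.9 in Python 3.11.15.

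Same-numbered libraries deviated together from their group means for numbers 1 and 2 (r = 0.762 and 0.514 across genes). For number 3 the r was 0.217, while CharmeKO 3 and WT 2 had 0.222, the highest of the other pairs (from -0.643). The values thus do not single out pair 3, which rests on the titles. The numbers, taken from the titles, were used to pair the libraries, although the labels do not say what they share. Differences in pair 3 and counts over all 3 pairs carry this limit.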

Additional observations from a re-analysis of the deposited data

How the results depend on the processing

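The count of genes called stayed at 0 under each alternative run, leaving out each library included (0 to 0), except with DESeq2, which called 8 without and 64 with the replicate block. No alternative called a member. The block changed no call of a member or of another pathway gene named here; in DESeq2 it called *Myh11*, a smooth muscle marker.

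Leaving out single libraries, which also breaks up a pair, turned the sign of every member. The ranges were -0.29 to 0.033 for *Slc16a10* (turned without CharmeKO 3), -0.26 to 1.18 for *Dio2* (without WT 2), -1.94 to 0.24 for *Dio3* (without WT 2 or CharmeKO 1), -0.12 to 0.65 for *Thra* (without WT 1 or CharmeKO 2), -0.37 to 0.60 for *Thrb* (without WT 1, WT 3, CharmeKO 2 or CharmeKO 3) and -0.051 to 0.31 for *Klf9* (without WT 3 or CharmeKO 3). The cause was not tested. The other alternatives turned only *Thrb*. A filter of at least 10 reads in every library gave no value for *Dio2* and *Dio3*, whose depth, down to 5 and 3 reads, limits both.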
